A study of Mus musculus with 2 samples.

Results

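Transcripts of 10 CXC chemokines were compared between 2 cultures labelled primary microglia, the macrophages that live in brain and spinal cord. The members were fixed by symbol: Cxcl1, Cxcl2 and Cxcl3 as neutrophil attractants, Cxcl9, Cxcl10 and Cxcl11 as interferon-induced members, and Cxcl12, Cxcl13, Cxcl14 and Cxcl16 as homeostatic members. All 10 were found among 26490 genes of the deposited table, each in a single row. One library came from cells said to carry a control vector, the other from cells said to carry a Per2-overexpression vector; Per2 is a repressor of the circadian clock. Each group held 1 library, so no difference has a replicate check, no test was possible and no SD can be given. The sources used here give no age, strain, time after transfection or pooling of animals. The labels name mouse as the organism, whereas the table carries rat Ensembl identifiers, and the values cannot settle which applies.

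CXC chemokines are small secreted proteins, named for the spacing of conserved cysteines, that guide leukocytes through G protein-coupled receptors. Cxcl1, Cxcl2 and Cxcl3 act through CXCR2, mainly on neutrophils, and are induced through NF-kB by cytokines and microbial products. Cxcl9, Cxcl10 and Cxcl11 act through CXCR3 on activated T cells and are induced by interferons. Cxcl12 binds CXCR4 and the scavenger receptor ACKR3, Cxcl13 draws B cells through CXCR5, and Cxcl16 is a membrane-bound ligand of CXCR6 that is released by shedding. In the injured central nervous system, glia are among the sources of such signals.

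Promoter sequences show what the attractants and Cxcl10 share beyond their family name. RefSeq's mouse table (GRCm38.p6) held 300 bases, 250 before and 50 after the start site, for 8 of the 10 members. Cxcl11 and Cxcl16 had no entry. They are mouse sequences matched by symbol, and the rat promoters were not used here. In the sequences below, printed 5' to 3' along the gene's strand, capitals mark matches to the NF-kB consensus and to the interferon response core TTTCNNTTTC, both searched on both strands. Cxcl1 lies at chr5:90890995-90891294 on the plus strand, Cxcl2 at chr5:90903649-90903948 on the plus strand, Cxcl3 at chr5:90785851-90786150 on the plus strand, and Cxcl10 at chr5:92348840-92349139 on the minus strand.
Cxcl1: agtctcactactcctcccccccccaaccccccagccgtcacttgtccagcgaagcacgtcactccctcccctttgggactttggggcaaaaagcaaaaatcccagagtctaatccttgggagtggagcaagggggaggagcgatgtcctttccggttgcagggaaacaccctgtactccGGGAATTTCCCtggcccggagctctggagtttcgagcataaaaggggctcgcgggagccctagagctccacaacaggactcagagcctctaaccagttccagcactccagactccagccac
Cxcl2: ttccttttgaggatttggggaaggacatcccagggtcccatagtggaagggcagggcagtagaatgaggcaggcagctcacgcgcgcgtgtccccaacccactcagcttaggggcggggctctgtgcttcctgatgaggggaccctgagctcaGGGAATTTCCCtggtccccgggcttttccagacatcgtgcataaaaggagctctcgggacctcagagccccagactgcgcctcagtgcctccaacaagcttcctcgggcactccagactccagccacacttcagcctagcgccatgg
Cxcl3: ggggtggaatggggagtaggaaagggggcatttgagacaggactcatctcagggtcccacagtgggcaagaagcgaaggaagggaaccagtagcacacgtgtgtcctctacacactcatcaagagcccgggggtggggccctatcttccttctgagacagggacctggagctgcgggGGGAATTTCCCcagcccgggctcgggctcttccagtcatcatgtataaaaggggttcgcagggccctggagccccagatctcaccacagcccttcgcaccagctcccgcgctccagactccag
Cxcl10: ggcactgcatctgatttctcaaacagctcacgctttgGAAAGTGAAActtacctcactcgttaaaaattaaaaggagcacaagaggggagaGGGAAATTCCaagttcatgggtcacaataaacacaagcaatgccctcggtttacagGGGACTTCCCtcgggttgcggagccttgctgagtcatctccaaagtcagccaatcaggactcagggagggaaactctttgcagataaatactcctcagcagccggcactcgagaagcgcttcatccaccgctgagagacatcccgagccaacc

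The mouse promoters of Cxcl1, Cxcl2 and Cxcl3 each held the same NF-kB stretch. The forward match GGGAATTTCC overlapped a match on the other strand, together spanning -71 to -61 from the start site in Cxcl1, -97 to -87 in Cxcl2 and -73 to -63 in Cxcl3. Cxcl10 held a pair of separate NF-kB matches, at -159 to -150 and at -103 to -94, and an interferon response core on the minus strand at -213 to -204. Of the 8 members with a sequence, 4 held the NF-kB consensus, against 4.51% of 32851 mouse promoters of the same length. Cxcl1, Cxcl2 and Cxcl3 are relatives that hold the same stretch, so their matches are not independent of each other. The interferon response core was found in 2 members, Cxcl10 and Cxcl14, against 3.44% of all promoters. The E-box CACGTG, the motif bound by CLOCK-BMAL1, was found in 1 member, Cxcl3, at -155 to -150, against 7.15% of all promoters. These matches describe letters in the window and do not show binding.

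Values are FPKM, the authors' fragment densities, corrected for transcript length and for the number of mapped fragments, with the library labelled control first throughout. The log2 ratio is log2 of (FPKM + 1) in the library labelled Per2 overexpression over (FPKM + 1) in the library labelled control, which understates the difference of low genes. Genes averaging 1 FPKM or more over both libraries were compared, and a ratio of at least 2-fold in either direction is called here. Per2 itself stood at 6.90 against 0.927 FPKM, a log2 ratio of -2.04, so the targeted transcript went against the label and directions below refer to the libraries as labelled. The FPKM values summed to 659696 and 760286, sequencing depth is unknown, and the median log2 ratio of the 12318 genes compared was -0.18. Across genes the ratio also declined with transcript length (Spearman's rho -0.50 over 10108 genes with a mouse length, a description across genes). Each member is therefore also given with that trend removed, a step that recentres the ratios as well.

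**Figure D1:**
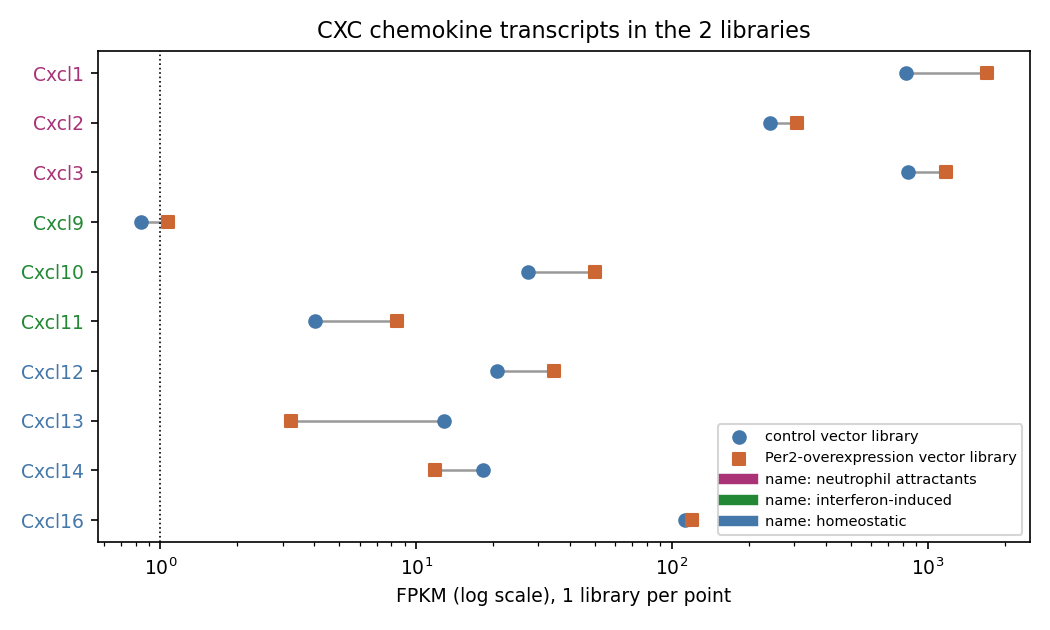
FPKM of each CXC chemokine on a log axis, with 1 point per library: circles for control vector, squares for Per2-overexpression vector. The dotted line marks 1 FPKM. Cxcl1 lies at 823 FPKM or more and Cxcl3 at 836 or more in both libraries, and Cxcl13 has the widest gap in the downward direction, 12.9 against 3.23 FPKM.

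Among the 10 members, neutrophil attractants had the highest summed level in both cultures. Per unit of transcript length, Cxcl1, Cxcl2 and Cxcl3 together held 90.6% of the summed FPKM of the 10 members in the library labelled control and 93.3% in the library labelled Per2 overexpression. Their sum was 1901 against 3195 FPKM, a ratio of 1.68. The CXC ligands outside the 10, chiefly Pf4, summed to 2812 and 2251 FPKM. Cxcl1, Cxcl2 and Cxcl3 were each higher in the library labelled Per2 overexpression, and 1 of them, Cxcl1, was called.

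Cxcl1, the rodent counterpart of the GRO chemokines, had 823 FPKM in the library labelled control and 1709 in the library labelled Per2 overexpression. This was a 2.08-fold difference and a log2 ratio of 1.05, ranked 230 from the top of the 12318 genes. By level it was the 116th most abundant gene in the first library and the 58th in the second. Once the length trend was removed its log2 ratio was 0.64, under 2-fold (0.97 with the median in place of the longest transcript length), and after rescaling to TPM it was 0.85.

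Cxcl3, a close relative that also acts through CXCR2, had 836 against 1179 FPKM. Its log2 ratio was 0.50. Removing the length trend gave 0.12 with the longest and 0.42 with the median transcript length. Cxcl2, also known as macrophage inflammatory protein-2, had 242 against 307 FPKM. Its log2 ratio was 0.34 and hardly differed with the length trend removed, at 0.36.

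The order among the 3 attractants was not the same in the libraries. Ratios within a library do not depend on how that library was scaled. The level of Cxcl1 was 0.984 times that of Cxcl3 in the library labelled control and 1.45 times in the other. It was 3.40 times that of Cxcl2 in the first and 5.58 times in the second, while Cxcl3 to Cxcl2 went only from 3.46 to 3.85. As deposited, Cxcl1 thus gained on both relatives, by factors of 1.47 and 1.64. Scaling cancels in these ratios, but the length trend need not. The longest mouse transcripts of Cxcl1 and Cxcl2 are 953 and 1859 nt. With that trend removed the log2 ratios were 0.64 for Cxcl1, 0.12 for Cxcl3 and 0.36 for Cxcl2. By the median transcript length they were 0.97, 0.42 and 0.40. The mouse transcripts of Cxcl1 share no 31-base word with those of Cxcl2 or Cxcl3, whereas 8.11% of the words of Cxcl3 occur in Cxcl2, so reads of that pair could be exchanged in part.

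Cxcl6, an attractant of the same receptor family outside the 10 members, had 355 against 349 FPKM, a log2 ratio of -0.03. The level of Cxcl1 was 2.32 times that of Cxcl6 in the library labelled control and 4.90 times in the other, a change of 2.11-fold that again does not depend on scaling. As deposited, attractants of neutrophils therefore differed among themselves in these libraries. Cxcl6 had no mouse length, so the length trend could not be removed from its comparison with Cxcl1. Without replicates the difference between Cxcl1 and Cxcl6 was not tested.

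Neutrophil markers gave mixed values beside these. Mpo, Ngp and Ltf were listed at 0 in both libraries, S100a9 had 1.79 against 0.688 FPKM, Csf3r 1.38 against 0.821 and Camp 1.64 against 1.73, whereas S100a8 had 677 against 753. Of the 8 markers 4 were compared, 2 with a ratio above 0 and 2 below (64.2% of all genes were below 0), and none (0) was called. All 4 were below 0 with the length trend removed by the longest transcript, beside 50.7% of genes. The marker list summed to 682 and 756 FPKM, nearly all of it S100a8. The median log2 ratio of the markers compared was -0.17 (-0.55 with the length trend removed). The part of these markers in the result was not tested.

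Both interferon-induced members that were compared had higher values in the library labelled Per2 overexpression, at far lower levels than the attractants. Cxcl10, also called IP-10, had 27.4 against 49.8 FPKM, a 1.82-fold difference with a log2 ratio of 0.84. Cxcl11, the CXCR3 ligand of highest affinity, had 4.02 against 8.38 FPKM. That is 2.08-fold in the deposited values, but its log2 ratio on FPKM + 1 was 0.90 and it was not called. Cxcl10 had 0.65 and Cxcl11 had 0.82 with the length trend removed.

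The pair moved in near proportion. Cxcl10 stood at 6.80 times Cxcl11 in the library labelled control and at 5.95 times in the other. Cxcl9, the member induced mainly by interferon gamma, had 0.837 against 1.07 FPKM and a mean of 0.954, just under the filter, so no ratio is counted for it. The 3 genes together held 1.54% and 1.73% of the members' summed FPKM.

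Homeostatic members went in different directions. Cxcl12, a guidance signal for progenitors and leukocytes, had 20.7 against 34.6 FPKM, a 1.67-fold difference. Its log2 ratio was 0.71, and 1.14 with the length trend removed, which is past 2-fold. The longest mouse transcript of Cxcl12 is 5627 nt, and with the median transcript length of 3132 nt the value was 1.05. Genes longer than that longest transcript had a median log2 ratio of -0.46.

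Cxcl13, the B cell attractant, had 12.9 against 3.23 FPKM. It was 3.99-fold lower in the library labelled Per2 overexpression, with a log2 ratio of -1.71, and was the only member called lower. Its log2 ratio was -2.01 with the length trend removed, and over the alternatives run it lay between -2.01 and -1.12. The ratio of Cxcl12 to Cxcl13 was 1.61 in the library labelled control and 10.7 in the other.

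Cxcl14, a chemokine of epithelia and nervous tissue, had 18.3 against 11.8 FPKM, a log2 ratio of -0.59 (-0.58 with the length trend removed). Cxcl16, the membrane-bound ligand, had 113 against 119 FPKM. Its log2 ratio of 0.08 turned to -0.12 after rescaling to TPM, so it has no direction independent of scaling. The 4 homeostatic members summed to 164 and 169 FPKM, and their share of the members' sum was 7.84% and 4.93%.

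Of the 9 members compared, 7 had a log2 ratio above 0 and 2 below, against 35.8% of all genes above 0. By the 2-fold rule 1 member, Cxcl1, was called higher, where 2.17% of all genes were, and 1 member, Cxcl13, was called lower, where 5.89% were. With the length trend removed, 1 member, now Cxcl12 in place of Cxcl1, was called higher beside 1.31% of genes, and Cxcl13 was called lower beside 2.37%. Counts of 1 are too small to set against these shares. Measured from the median of all genes instead of from 0, 3 members were past 2-fold in the upward direction: Cxcl1 (1.24), Cxcl11 (1.09) and Cxcl10 (1.03).

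**Figure D2:**
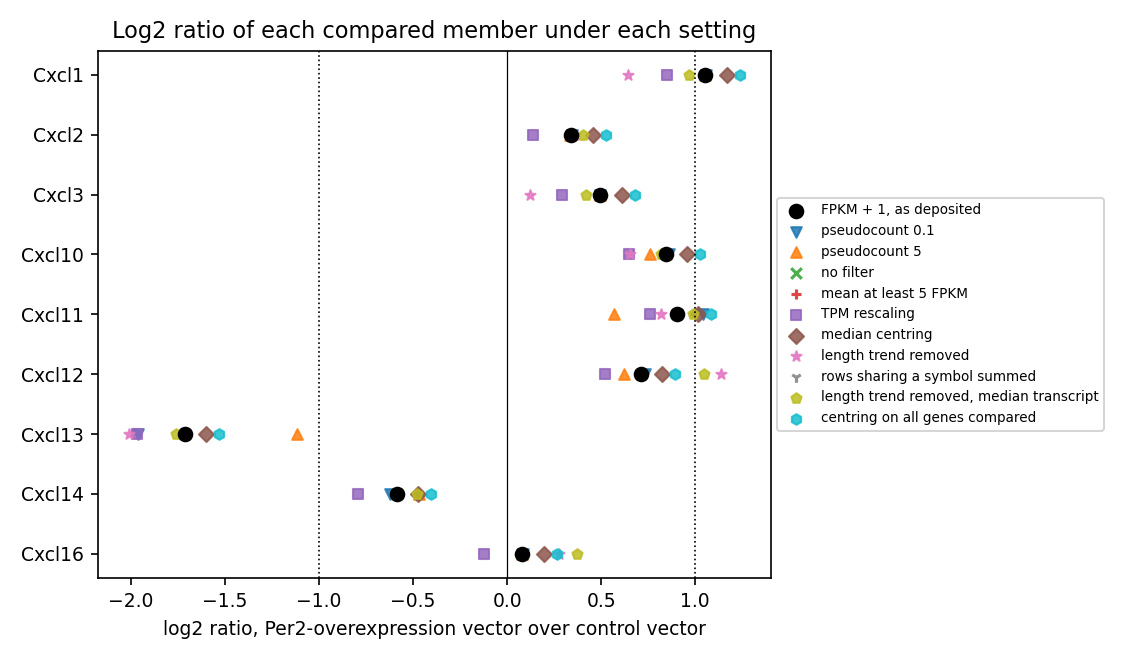
Log2 ratio of each of the 9 compared members (x axis, library labelled Per2 overexpression over library labelled control) under the main setting (black circle) and each alternative. Dotted lines mark 2-fold. Cxcl13 lies below -1 in each setting shown, Cxcl1 falls on either side of 1, and Cxcl16 on either side of 0.

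Neutrophil attractants had a median log2 ratio of 0.50 over 3 genes. The 2 interferon-induced members compared had a median of 0.87 and the 4 homeostatic members one of -0.25. The median of the attractants exceeded that of the other 6 members compared by 0.10. With the length trend removed this difference was -0.11, so the attractants did not stand apart from the rest in a direction that held in both settings. The groups also overlap, since Cxcl12 (0.71) lay above Cxcl2 (0.34) and Cxcl3 (0.50).

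**Figure D3:**
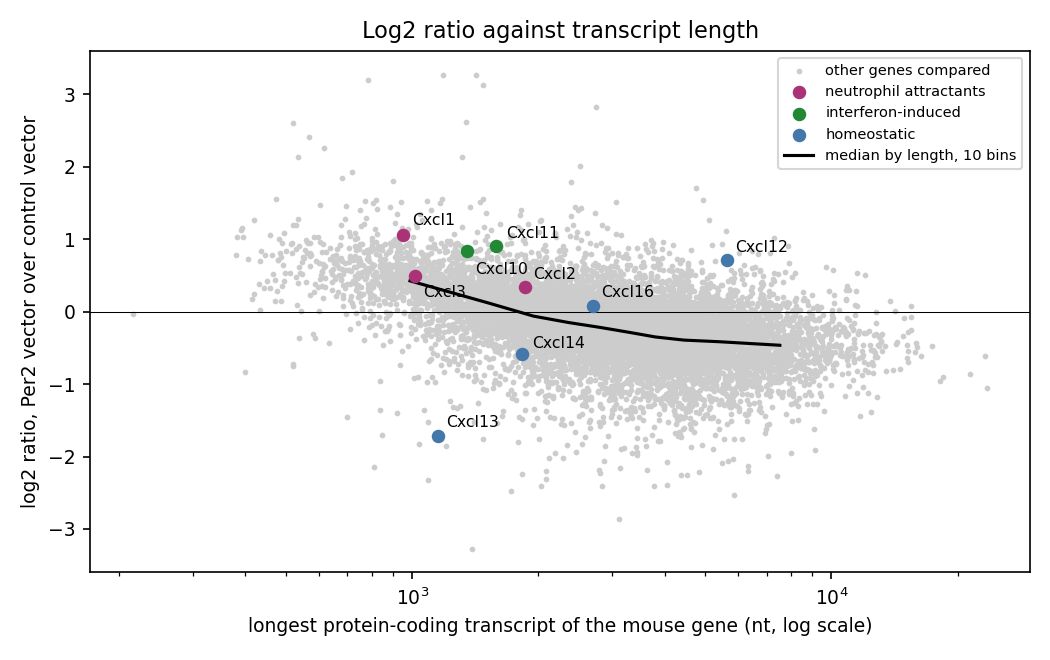
Log2 ratio (y axis) against the length of the longest coding mouse transcript of that symbol (x axis, nt, log scale) for the genes with a length (grey) and the 9 compared members (coloured by role). The black line joins the medians of 10 bins of genes by length. Cxcl3 lies close to the line, Cxcl12 (5627 nt) and Cxcl13 (1150 nt) lie far above and far below it.

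Several of the chemokine transcripts are short, which bears on these values. Over the whole range of member lengths, 953 to 5627 nt, 8281 genes had a median log2 ratio of -0.18, and 34.2% were above 0. Over the 1463 genes between 953 nt, the length of Cxcl1, and 1704 nt, the median of the members, the median log2 ratio was 0.20, and 70.8% of them were above 0. Cxcl1 (953 nt) and Cxcl3 (1016 nt) fall at the short end of that range, as does Cxcl13 (1150 nt), which went the other way. Among 78 genes with a mean FPKM within 0.5 log2 units of that of Cxcl1, those with the nearest log2 ratio included Rpl36 (1.03) and Rps19l2 (1.00). Their symbols are those of ribosomal proteins or a relative, families with near-identical copies, so their values are uncertain. Removing the length trend gave 0.13 for Rpl36 and 0.64 for Cxcl1, while Rps19l2 had no mouse length. With 2 libraries a pattern is a single ratio, and nothing more is read from the likeness.

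Receptors for the attractants and for the interferon-induced members were near 0 in both cultures. Cxcr2, the receptor of Cxcl1 to Cxcl3, had 0.0979 against 0.101 FPKM, and Cxcr1 had 0.196 against 0.299. Cxcr3 had 0.130 FPKM and was listed at 0 in the library labelled Per2 overexpression. Cxcr5, the receptor of Cxcl13, had 0.422 against 0.192, while Cxcr6, the receptor of Cxcl16, and the scavenger Ackr2 were listed at 0 in both.

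The receptors of Cxcl12 were measured at higher levels and differed in opposite directions. Ackr3, which takes up and degrades Cxcl12, had 24.0 against 51.6 FPKM, a log2 ratio of 1.07 (1.32 with the length trend removed). It was the only receptor of the 3 compared that was called, beside 2.17% of all genes called higher. With a pseudocount of 5, or after rescaling to TPM, 0 receptors were called. Cxcr4, the signalling receptor, had 11.4 against 7.41 FPKM, a log2 ratio of -0.56. Ackr4, a scavenger mainly of CC chemokines, had 5.03 against 6.32 FPKM, a log2 ratio of 0.28.

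**Figure D4:**
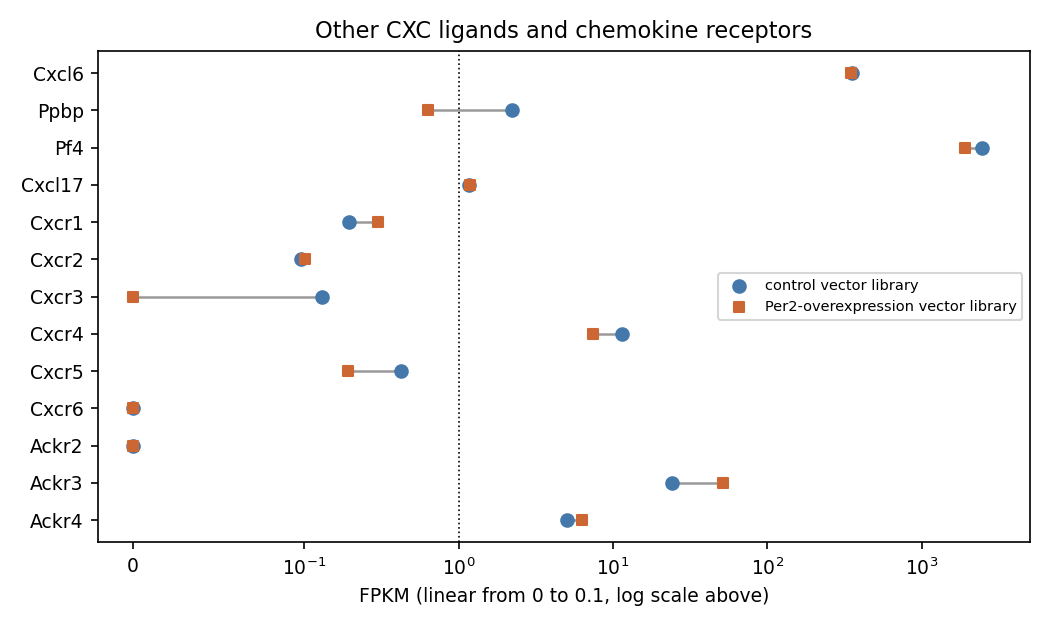
FPKM of the other CXC ligands and of the chemokine receptors in the 2 libraries (circles, control vector; squares, Per2-overexpression vector), on an axis that is linear up to 0.1 and logarithmic above. Pf4 and Cxcl6 lie at 349 FPKM or more, Ackr3 and Cxcr4 lie apart in opposite directions, and the other CXCR genes lie below 1.

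Other CXC ligands did not share the call of Cxcl1. Pf4, platelet factor 4, was the most abundant of them with 2454 against 1900 FPKM, a log2 ratio of -0.37 that became -1.04 with the length trend removed. Ppbp, the precursor of another platelet CXC chemokine, had 2.22 against 0.632 FPKM (log2 ratio -0.98), and Cxcl17 had 1.16 against 1.19. Of the 4 compared, 3 had a ratio below 0, 1 above, and none (0) was called. Of all genes 64.2% were below 0, 2.17% were called higher and 5.89% lower. Once the length trend was removed 2 of the ligands were past 2-fold in the downward direction, Pf4 and Ppbp (-1.31), beside 2.37% of genes. With the median transcript length 1 was, Ppbp (-1.04), while Pf4 had -0.52.

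Signalling genes upstream of the attractants, mostly receptors, adaptors and kinases, had a median log2 ratio close to that of all genes. Of 15 genes of IL-1, TNF and IL-17 signalling, 5 had a ratio above 0 and 10 below, beside 64.2% of all genes below 0. The list's median was -0.11 beside -0.18 for all genes (0.11 with the length trend removed). Of all genes 2.17% were called higher and 5.89% lower, and 1 gene of the list was called each way. Il1rn, the IL-1 receptor antagonist, was called higher (175 against 374 FPKM, log2 ratio 1.09), a call not made after rescaling to TPM, and Il1r1, the signalling receptor, was called lower (3.34 against 0.852, log2 ratio -1.23, but -0.80 with the length trend removed). Tnf had 8.60 against 13.4 FPKM and Il17rc 9.25 against 13.6, log2 ratios of 0.59 and 0.51.

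Of 14 NF-kB subunits and feedback genes, 3 were called lower, 0 were called higher, and the median was -0.17 (0.07 with the length trend removed). Of all genes 5.89% were called lower and 2.17% higher. The list's count called lower was 0 with a pseudocount of 5, which compresses low genes. It was 2 with the length trend removed, beside 2.37% of genes. Tnfaip3, which encodes the inhibitor A20, had 5.73 against 1.18 FPKM (log2 ratio -1.63). Ikbkg, the regulatory subunit of the IKK complex, had 3.51 against 0.472 (-1.61). Nfkbiz, a nuclear co-regulator of a subset of NF-kB targets, had 19.0 against 7.36 (-1.26, and -0.90 with the length trend removed). Ikbkb, a kinase subunit of the complex, had 8.26 against 5.12 (-0.60).

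Most genes induced by interferon had ratios above 0, like Cxcl10 and Cxcl11, whereas most genes of the signalling chain, like 64.2% of all genes, had ratios below 0. Of 16 interferon-stimulated genes, 13 had a ratio above 0 and 3 below, with a median of 0.25. Beside 2.17% of all genes, 3 of the 16 were called higher. These were Isg15, a ubiquitin-like modifier (53.0 against 121 FPKM, log2 ratio 1.18), Oas1a, an RNA sensor (13.5 against 32.7, 1.21), and Ifi27 (604 against 1334, 1.14). The count depended on the setting. It was 1 (Oas1a) with the length trend removed by the longest transcript, 4 by the median transcript, which added Rsad2 (1.00), and 1 after rescaling to TPM, where the list's median was 0.05. Oas1a and Ifi27 belong to families with close copies, which makes their values uncertain. Rsad2, which encodes viperin, had 8.54 against 13.6 FPKM (0.61).

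Of 13 interferon signalling genes, 2 had a ratio above 0 and 11 below, with a median of -0.25 and none (0) called. Removal of the length trend left 5 of the 13 below 0. Jak1, a receptor-associated kinase, had 37.7 against 19.2 FPKM (log2 ratio -0.94), and Irf8, a myeloid transcription factor, had 6.78 against 3.13 (-0.91). Tyk2 had 5.37 against 3.02 (-0.66) and Ifnar1, a subunit of the type I interferon receptor, 32.5 against 22.8 (-0.49). The medians of both interferon lists moved upward with the length trend removed, to 0.38 for the induced genes and 0.02 for the signalling genes.

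Markers of the cells that could supply these chemokines also differed between the libraries. In bulk RNA, fewer cells of a type and less RNA per cell cannot be told apart. Of 14 microglia markers 12 were compared, 10 with a ratio below 0 and 2 above, and 5 were called lower. Of all genes 64.2% had a ratio below 0 and 5.89% were called lower. With the length trend removed 10 markers were below 0 and 4 were past 2-fold, beside 2.37% of genes. The marker list summed to 2559 and 2293 FPKM. The largest differences were in C1qb (116 against 22.3 FPKM, log2 ratio -2.33), Gpr34 (11.5 against 1.73, -2.20), C1qc (99.0 against 26.6, -1.86) and C1qa (257 against 71.6, -1.83). Cx3cr1, a defining marker of microglia, was listed at 0 in both libraries. Cxcl13 (-1.71) differed by a similar factor to these complement genes.

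All 10 astrocyte markers had a ratio below 0, beside 64.2% of all genes, and 5 were called lower, beside 5.89%. They summed to 439 and 198 FPKM. With the length trend removed 8 were below 0 and 2 were past 2-fold (4 by the median transcript). With a pseudocount of 5 or either centring 3 were, and after rescaling to TPM 7 were. Among them Gja1, a gap junction gene, had 163 against 74.9 FPKM and Gfap, a filament gene, 56.4 against 17.8. Fgfr3 had 9.70 against 3.55 and Aldoc 53.0 against 17.8. Of 10 fibroblast and meningeal markers, cells that can make Cxcl12, 7 had a ratio below 0, 3 above and none (0) was called, with sums of 1121 and 899 FPKM. Their median of -0.20 turned to 0.14 with the length trend removed. Dcn had 46.3 against 25.7 FPKM, Col1a2 112 against 68.1, Col3a1 196 against 120, and Pdgfra 7.40 against 9.72. Of 9 endothelial markers 3 were compared and none (0) was called: Esam had 54.2 against 59.2 FPKM, Flt1 3.57 against 2.86 and Tie1 1.78 against 1.09, with Cldn5 at 0 in both. The part of these shifts in the chemokine values was not tested.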

How the data were processed

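Poly(A)-selected RNA was sequenced in 2 libraries, 1 per group, per the labels' protocols. The authors deposited FPKM values in a table of 26607 rows, 22050 of them with rat Ensembl identifiers. The submitters' processing notes name HISAT2, StringTie, DESeq2, edgeR and the build Rnor_6.0, with no version, role or setting. Depth could not be recovered from the values (of 1286 low genes, at most 6 shared a ratio between libraries), so no counting interval is given.

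Columns were matched to samples by library name. Where rows shared a symbol (107 symbols) the higher mean was kept. Log2 ratios used a pseudocount of 1 FPKM and a minimum mean of 1 FPKM, and a 2-fold rule stood in for a test. The length trend was a lowess fit (span 0.3, statsmodels 0.14.6), checked on simulated data, on the longest coding mouse transcript (GENCODE M21), known for 82.1% of genes compared. Alternatives were pseudocounts of 0.1 and 5, other filters (none, 5 FPKM), TPM, median centring and summed rows; the median transcript length and centring on all genes compared were added after seeing the data.

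Named genes were the members, Per2, the receptors and other CXC ligands, the 3 genes nearest to Cxcl1 and, from each remaining list, the 4 compared genes that differed most. The members and lists were chosen with earlier results of these data known. Cxcl5, Cxcl15 and Ackr1 were not analysed here, and values of a few genes that the rule names are not reported here.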

Additional observations from a re-analysis of the deposited data

How the results depend on the processing

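Among the members, Cxcl14 kept a log2 ratio between -0.79 and -0.40, Cxcl2 between 0.14 and 0.53 and Cxcl3 between 0.12 and 0.68 over every alternative run. Cxcl1 ranged from 0.64 to 1.24, Cxcl10 from 0.65 to 1.03, Cxcl11 from 0.57 to 1.09 and Cxcl12 from 0.52 to 1.14, so each crossed 2-fold under some of them. Cxcl16 reversed after TPM rescaling (-0.12). Members called higher numbered 2 with a pseudocount of 0.1, 2 after centring on the median of genes with at least 5 FPKM, 3 after centring on that of all genes compared and 0 after TPM rescaling, against 1 as deposited, and the count called lower was 1 throughout. Centring on all genes took the interferon-induced median from 0.87 to 1.06, past 2-fold. The excess of the attractants' median over the other members (0.10) reversed with the length trend removed, to -0.11 with the longest and -0.18 with the median transcript, and the cause was not tested. The median of all genes was 0.0020 in the latter setting, which recentres by construction.

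Against 267 genes called higher and 725 called lower as deposited, a pseudocount of 0.1 gave 407 and 1292, and a pseudocount of 5 gave 119 and 162. The same centrings gave 402 higher, and 514 higher with 436 lower, a mean of at least 5 FPKM 360 lower, and TPM rescaling 1497 lower. Removing the length trend gave 132 and 240 with the longest transcript and 147 and 286 with the median one, over fewer genes. Leaving out a replicate could not be done with 1 library per group. No paired analysis was possible because each group held 1 library. Unknown depth limits the low values most, those of Cxcl9 and the receptors among them.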

Other observations

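Proteases that trim or shed CXC ligands differed in both directions. Of 11 listed, 8 were compared, 3 with a log2 ratio above 0 and 5 below, with none (0) past 2-fold as deposited. Of all genes 64.2% were below 0. The median of the proteases was -0.08, and 0.11 after removal of the length trend. Adam10, a sheddase of Cxcl16, had 21.4 against 10.9 FPKM and Mmp14 57.3 against 31.6, while Mmp9, a gelatinase, had 146 against 248 and Mmp12, the macrophage elastase, 22.9 against 42.6. Mmp12 (1.18) and Mmp9 (1.01) were past 2-fold with the length trend removed by the longest transcript, beside 1.31% of genes. By the median transcript they were not (0.88 and 0.91). The release of Cxcl16 was not measured.

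Factors that control the decay or stability of chemokine mRNA also differed both ways. Of 8 compared, 5 were above a log2 ratio of 0, beside 35.8% of all genes, 3 were below and none (0) was past 2-fold. Zfp36l2 had 38.7 against 59.8 FPKM and Zc3h12a, which encodes the endonuclease regnase-1, 39.3 against 55.8. Zfp36l1, of the same family as Zfp36l2, had 50.5 against 30.4, and Khsrp had 4.58 against 2.94.

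Of 12 clock genes 11 were compared, 10 had a log2 ratio below 0 and 3 were past 2-fold in that direction: Per2, Bhlhe41 (9.89 against 3.97 FPKM) and Bhlhe40 (8.01 against 3.47). Of all genes 64.2% were below 0 and 5.89% were past 2-fold in that direction. Once the length trend was removed, 6 of the 11 were below 0 and 1, Per2, was past 2-fold, as it alone was with a pseudocount of 5. Cry1 had 6.39 against 3.28. Each of the 5 oligodendrocyte lineage markers compared had a log2 ratio below 0, among them Olig1 (10.1 against 3.86), Sox10 (2.88 against 0.791) and Olig2 (2.94 against 1.10). Of the neuronal genes compared, Stmn2 had 27.6 against 16.0, Tubb3 9.44 against 10.02, Syt1 1.71 against 0.561 and Gad1 1.36 against 0.719. Of the lymphocyte genes, Cd8a had 16.0 against 2.81 and Lck 2.67 against 2.28, with Cd3e and Cd3d at 0 in both. The 6 mitochondrial transcripts listed summed to 41635 and 46507 FPKM.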
